A study of Mus musculus with 8 samples.

Results

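Collagens are the triple-helical proteins that form most of the extracellular matrix. Each chain carries glycine at regular intervals along its length, and trimers of chains assemble into fibrils, into sheets or into filaments. Fibrillar collagens (types I, II, III, V, XI, XXIV and XXVII) build the load-bearing fibers of the stroma. Collagen IV forms the network of basement membranes, in which types XV and XVIII are also found, while type VII anchors that membrane to the tissue beneath it. The other collagens comprise the beaded filaments of type VI, the short chain networks of types VIII and X, the types IX, XII, XIV, XVI, XIX, XX and XXII that sit on fibrils or at matrix junctions (called FACIT collagens), and the transmembrane types XIII, XVII, XXIII and XXV. In solid tumors most fibrillar collagen is laid down by fibroblasts, and most collagen IV by endothelial cells, pericytes and epithelium.

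The members were the non-control probes of the array whose gene name is a collagen chain (Col, a number, a, a number). They were 91 probes of 44 genes, of 56605 probes and 37074 gene names in all. Of these genes, 11 were placed with the fibrillar, 9 with the basement membrane and 24 with the other collagens.

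Tumors of CT26, a murine colorectal carcinoma line of BALB/c origin, were grown under the skin of the flank from 500000 implanted cells. The mice of the study were female and 6 to 10 weeks old, and their immune system was intact. Vehicle mice received no active agent. TP-16 mice received TP-16(BY001), an antagonist of the prostaglandin E2 receptor EP4, dosed orally each day at 75 mg/kg. The anti-PD-1 group was given an antibody to the checkpoint receptor PD-1, injected intraperitoneally 2 times a week at 50 μg per mouse, and combination mice received both agents at these doses. Treatment began once tumors were established and lasted 2 weeks, and whole tumor tissue was then taken for RNA. Each of the 4 groups had 2 arrays, described as independent biological replicates, and neither the labels nor the methods tell if tumors were pooled.

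All 8 one-colour arrays lay on 1 slide and came from 1 scan. Between 51.4% and 59.7% of the probes of an array were well above background, and no spot of a gene was saturated. Replicates correlated at 0.978 (vehicle) to 0.992 (combination) over the 31912 probes tested, so the vehicle pair was the farthest apart. Vehicle and TP-16 samples occupied one row of the slide and anti-PD-1 and combination samples the other, so slide row and antibody cannot be told apart, and slide column and TP-16 cannot be told apart either. Values below are log2 processed intensities from which each array's own 75th percentile was subtracted, written as log2 signal, and an array at 0 has that percentile's intensity. That percentile was 371 and 378 in vehicle, 530 and 551 in TP-16, 398 and 415 in anti-PD-1, and 607 and 734 in combination arrays. A probe at background therefore reads lower where the percentile is larger. Col4a6, above background on no array, read -6.4 and -6.1 in vehicle and -6.9 and -7.3 in combination tumors. On this scale the median over all 21497 genes tested stood 0.24 lower in the combination than in vehicle tumors, against -0.05 after quantile normalization.

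Of the 44 genes, 35 had a probe that both arrays of some group measured well above background and were tested, each by its brightest tested probe. Col27a1 (fibrillar), Col4a3, Col4a4 and Col4a6 (basement membrane), and Col6a4, Col6a6, Col9a1, Col9a3 and Col19a1 (other) had no such probe, and each of their probes was above background on at most 1 array. Of the 35 tested genes, 23 were above background on all 8 arrays by that probe. Another 8 passed through 1 group alone: Col6a5, Col11a1, Col15a1 and Col24a1 through the combination, Col11a2 through TP-16, and Col10a1, Col22a1 and Col25a1 through vehicle. For a gene that entered the test in this way the filter favored a high level in that group, so its difference from that group gives no support for a direction.

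The glycine repeat can be read in the probes themselves. Of the 91 collagen probes, 4 hold a glycine codon (GGN) at every ninth base in a reading frame without a stop. They are shown because they lie in the triple-helix coding part, as the strand-sense letters of the array's 60-base probes, with the glycine codons in capitals.
Col5a3, chromosome 9, 20590066 to 20590795, minus strand, mm9: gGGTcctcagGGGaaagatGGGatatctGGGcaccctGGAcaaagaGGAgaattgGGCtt
Col11a2, chromosome 17, 34189287 to 34189453, plus strand, mm9: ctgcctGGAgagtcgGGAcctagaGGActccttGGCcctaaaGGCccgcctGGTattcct
Col15a1, chromosome 4, 47283786 to 47283845, plus strand, mm9: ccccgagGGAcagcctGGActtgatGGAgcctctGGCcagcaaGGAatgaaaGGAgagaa
Col6a3, chromosome 1, 92689602 to 92690594, minus strand, mm9: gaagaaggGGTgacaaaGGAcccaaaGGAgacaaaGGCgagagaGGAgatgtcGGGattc
The Col5a3, Col11a2 and Col6a3 probes span more than 60 bases of genome and so cross an exon junction. Only the Col11a2 probe is the one its gene is reported by below, and the Col15a1 and Col6a3 probes return where probes of a gene disagree.

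Which collagens differed between combination and vehicle tumors was the first question. Combination tumors had higher levels of type I, III, V and VI collagen transcripts than vehicle tumors. With a 2-fold difference or more and a limma adjusted p no higher than 0.05, 11 of the 35 collagen genes were higher and 3 were lower, against 5.59% higher and 8.62% lower among all genes tested. The 3 lower genes all entered the test through vehicle alone, and 1 of the 11 higher genes, Col11a1, through the combination alone. On probes above background on all 8 arrays 24 collagens could be tested, of which 9 were higher and 0 lower in limma (1 lower at the unadjusted p), against 5.44% and 7.4% of all genes. The 11 comprised 7 of 10 fibrillar genes, 4 of 19 other genes and none of 6 basement membrane genes. After quantile normalization the split was 14 higher and 2 lower, against 7.42% and 3.94% of all genes, after normexp correction 8 and 4, against 3.82% and 5.69%, and with no filter on dim probes 6 and 1, against 1.89% and 5.74%. At the adjusted p with no limit on fold, 13 were higher and 3 lower, against 9.6% and 26% of all genes. The median log2 fold change was 0.69 over the 35 collagens, 1.26 over the fibrillar, 0.25 over the basement membrane and 0.49 over the other collagens. The median over all collagens was 1.05 after quantile normalization and 0.16 after normexp correction. On probes measured on all 8 arrays these medians were 0.65, 1.26, 0.02 and 0.04, over 24, 7, 5 and 12 genes. The samples are bulk tissue, so more cells of a type and more RNA per cell cannot be told apart.

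**Figure D1:**
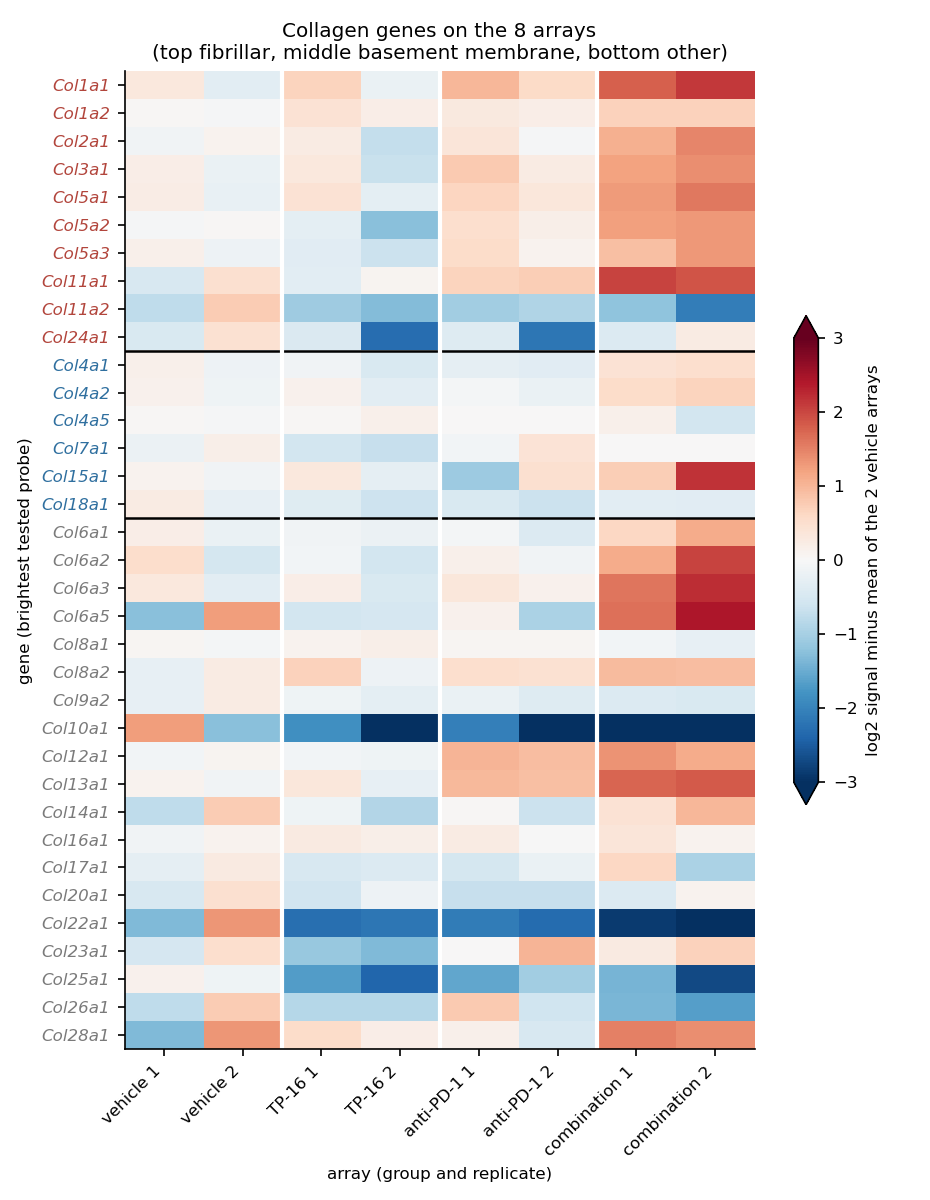
Log2 signal of the 35 tested collagen genes on the 8 arrays, each minus the mean of the 2 vehicle arrays of that gene, with fibrillar genes at the top, basement membrane genes in the middle and other genes at the bottom. Red is higher and blue lower than vehicle, colors stop at 3 in either direction, and both combination columns are red for 8 of the 10 fibrillar genes while Col10a1, Col22a1 and Col25a1 are blue outside the vehicle columns.

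These calls rest on few arrays. When the fit held only the vehicle and combination arrays, or when the methods' t-test was adjusted over all probes, 0 collagens were called, as were 0 of all genes tested in either case. The methods' own threshold of a fold of 2 with an unadjusted p of 0.05 gave 11 collagens higher and 5 lower in limma (6.65% and 10.4% of all genes), and 7 in either direction by the methods' t-test (8.22% of all genes). Without combination replicate 2, no gene of the array passed the adjusted threshold, its lowest adjusted p being 0.065, and 7 collagens were higher and 3 lower at the unadjusted one, against 4.39% and 6.15% of all genes. Without either anti-PD-1 replicate 1 or anti-PD-1 replicate 2 the calls were 7 higher and 2 lower, against 4.41% and 7.48% of all genes in each case. Without vehicle replicate 2 they were again 7 and 2 (6.44% and 5.97%), and without combination replicate 1 they were 7 and 1 (4.12% and 9.4%).

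Type I collagen, the main component of fibers, is a trimer of 2 Col1a1 chains and 1 Col1a2 chain. Col1a1 (NM_007742, chromosome 11, 94813075 to 94813134 in mm9) read 4.69 and 4.07 in vehicle, 5.04 and 4.17 in TP-16, 5.38 and 4.95 in anti-PD-1, and 6.18 and 6.49 in combination tumors. Both combination arrays lay above the other 6, and both anti-PD-1 arrays above both vehicle arrays. The combination exceeded vehicle by 1.95 (SE 0.36, 3.87-fold, limma adjusted p = 0.0153, n = 2 per group). A second probe of the same transcript, overlapping the first, rose by 1.45 (adjusted p = 0.0261) and a probe of ENSMUST00000001547 by 1.89 (adjusted p = 0.0343). Both NM_007742 probes were spotted 10 times on each array, and the SD between those spots was at most 0.0638 on the log2 scale, far below the difference between the vehicle arrays.

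Col1a2 (NM_007743, chromosome 6, 4490619 to 4490678) read 7.13 and 7.04 in vehicle, 7.51 and 7.28 in TP-16, 7.38 and 7.29 in anti-PD-1, and 7.78 and 7.77 in combination tumors. No array of vehicle overlapped any other group, and both combination arrays stood highest. Its difference from vehicle was 0.69 (SE 0.12, 1.61-fold, adjusted p = 0.0134), a rise under the fold of 2. Within an array, the log ratio of the Col1a1 to the Col1a2 probe moved from -2.44 and -2.97 in vehicle to -1.61 and -1.28 in combination tumors, a shift of 1.26, so these probes changed unequally.

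Type III collagen, made of Col3a1 alone, mixes with type I in the fibers of extensible tissue. Col3a1 (NM_009930, chromosome 1, 45405589 to 45405648) read 5.26 and 4.85 in vehicle, 5.38 and 4.40 in TP-16, 5.83 and 5.30 in anti-PD-1, and 6.27 and 6.44 in combination tumors. The combination arrays were the highest of the 8, and the TP-16 pair spanned the vehicle pair. Col3a1 rose by 1.30 (SE 0.362, 2.47-fold, adjusted p = 0.0417), and 10 of 18 alternative settings took its adjusted p above 0.05.

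Type V collagen sets the diameter of type I fibrils. Col5a1 (NM_015734, chromosome 2, 27894595 to 27894654) read 2.77 and 2.32 in vehicle, 2.98 and 2.25 in TP-16, 3.19 and 2.89 in anti-PD-1, and 3.83 and 4.13 in combination tumors. It rose by 1.43 (SE 0.296, 2.70-fold, adjusted p = 0.0196) in combination over vehicle tumors. The partner chains, named here after their values were seen, rose as well: Col5a2 by 1.26 (SE 0.31, adjusted p = 0.0301) and Col5a3 by 1.10 (SE 0.232, adjusted p = 0.0209). A second Col5a2 probe, of ENSMUST00000150143 and measured on 5 arrays, differed by -1.23 (adjusted p = 0.311). All 3 genes had both combination arrays above the other 6. The calls at a fold of 2 and the adjusted p were lost in 5 of 18 alternative settings for each of Col5a1 and Col5a3, and in 11 for Col5a2.

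Col11a1 encodes a chain of type XI, the minor fibrillar collagen of cartilage and of activated tumor stroma. Its probe (NM_007729, chromosome 3, 113922153 to 113922211) was well above background on both combination arrays, at -2.91 and -3.06, and on none of the other 6, which read between -5.43 and -4.19. Against the lowest signal that counted as measured on the vehicle arrays, Col11a1 was at least 1.95-fold higher (adjusted p of the fit 0.0124). It entered the test through the combination alone, so the call has no support outside the group that admitted it. After normexp background correction its difference was 0.16, with no call. Col2a1, the chain of cartilage collagen II, rose by 1.26 (SE 0.345, adjusted p = 0.0402), is named after its values were seen, and lost its call in 10 of 18 settings. Col11a2 did not pass (adjusted p of the fit 0.0605). Neither combination array and 1 of 2 vehicle arrays measured it, so no size is given. Col24a1 differed by -0.07 (adjusted p = 0.953).

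Among the basement membrane genes none passed the test. Col4a1 and Col4a2, the chains of the ubiquitous collagen IV trimer, came nearest. Col4a1 (NM_009931, chromosome 8, 11199009 to 11199068) read 3.34 and 3.04 in vehicle, 3.07 and 2.73 in TP-16, 2.92 and 2.86 in anti-PD-1, and 3.64 and 3.71 in combination tumors. The difference between combination and vehicle was 0.48 (SE 0.164, 95% confidence interval 0.08 to 0.88, adjusted p = 0.0702). Col4a2 (NM_009932, chromosome 8, 11448840 to 11448899) read 2.51 and 2.25 in vehicle, 2.50 and 2.05 in TP-16, 2.31 and 2.19 in anti-PD-1, and 2.92 and 3.04 in combination tumors, a difference of 0.60 (SE 0.185, interval 0.15 to 1.06, adjusted p = 0.0538). For both genes the combination arrays were above all others, and the log ratio of Col4a1 to Col4a2 stayed between 0.57 and 0.83 on the 8 arrays. Col4a2 passed at the adjusted p, under a fold of 2, in 5 of 18 alternative settings and Col4a1 in 2.

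Col18a1, whose end fragment is endostatin, went its own way. It (NM_009929, chromosome 10, 76515820 to 76515879) read 3.81 and 3.32 in vehicle, 3.19 and 2.95 in TP-16, 3.11 and 2.93 in anti-PD-1, and 3.24 and 3.23 in combination tumors. All 6 treated arrays were below both vehicle arrays, and the combination differed from vehicle by -0.33 (SE 0.192, interval -0.80 to 0.14, adjusted p = 0.228). Col15a1, the closest relative of Col18a1 (NM_009928, chromosome 4, 47325273 to 47325332), was measured by its brightest probe on the combination arrays alone, at -4.41 and -2.99, with the other 6 between -6.23 and -4.66. Its coding probe printed above was measured instead on both vehicle arrays, at -3.87 and -3.69, and on 1 combination array. The brightest probe's difference of 1.45 (SE 0.649, adjusted p = 0.135) did not pass and was -0.04 after normexp correction. Col4a5 and Col7a1 differed by -0.19 and 0.02, with adjusted p of 0.55 and 0.948.

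**Figure D2:**
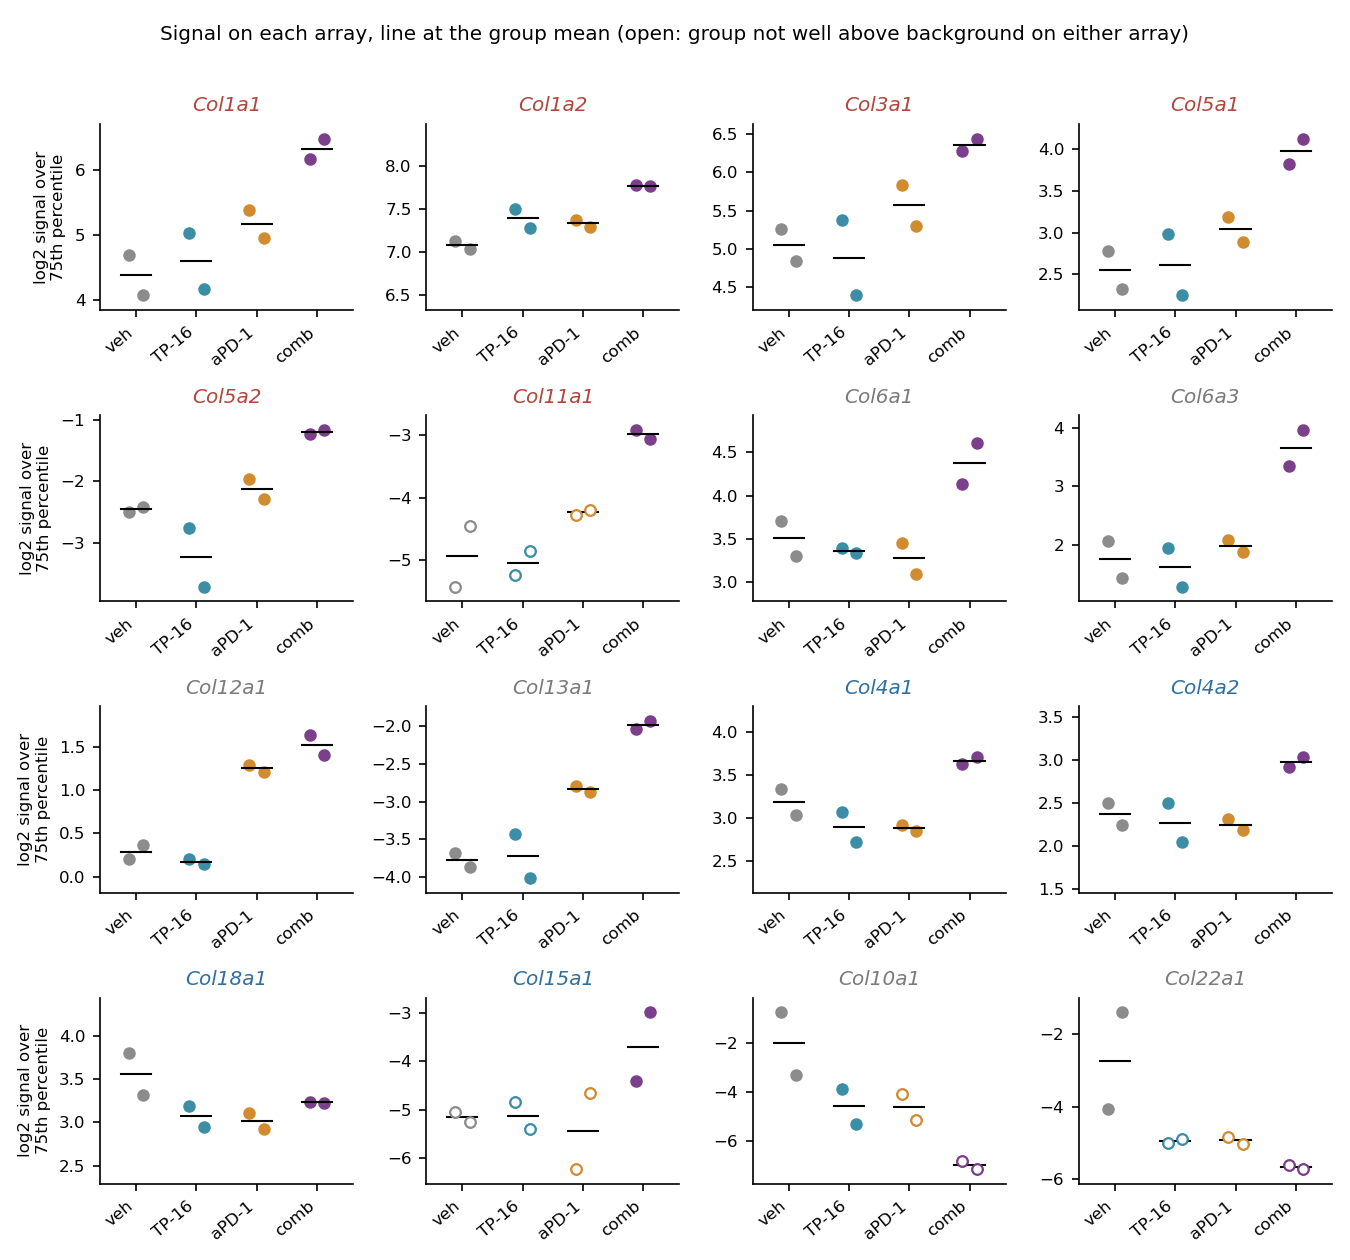
Log2 signal over the 75th percentile for 16 collagen genes, 1 point per array and a line at the mean of each group (veh, vehicle; aPD-1, anti-PD-1; comb, combination), with gene names in red for fibrillar, blue for basement membrane and grey for other collagens. Points are open where neither array of the group was well above background, and each panel has its own range of at least 2 units. The combination points stand apart above the others for Col1a1, Col6a3 and Col13a1, while Col18a1 is highest in vehicle.

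Type VI collagen forms beaded filaments around cells, from trimers of Col6a1, Col6a2 and Col6a3 or a chain in place of the last. Col6a1 (NM_009933, chromosome 10, 76171538 to 76171597) read 3.71 and 3.30 in vehicle, 3.39 and 3.34 in TP-16, 3.46 and 3.09 in anti-PD-1, and 4.13 and 4.61 in combination tumors. It rose by 0.87 (SE 0.233, 1.83-fold, adjusted p = 0.0374). Col6a2 (NM_146007, chromosome 10, 76058931 to 76058990) read -0.34 and -1.41 in vehicle, -0.95 and -1.43 in TP-16, -0.73 and -0.98 in anti-PD-1, and 0.24 and 1.16 in combination tumors, a rise of 1.57 (SE 0.452, adjusted p = 0.0452). The adjusted p of Col6a1 rose above 0.05 in 10 and that of Col6a2 in 13 of 18 alternative settings, and the other probes of Col6a2 gave 0.84 and 0.78 without passing. In both genes the combination arrays lay above the other 6.

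Col6a3 (NM_001243008, chromosome 1, 92663663 to 92663722), the largest chain of type VI, read 2.07 and 1.43 in vehicle, 1.94 and 1.28 in TP-16, 2.09 and 1.88 in anti-PD-1, and 3.35 and 3.97 in combination tumors. By this probe it rose by 1.91 (SE 0.343, 3.75-fold, adjusted p = 0.0144). The coding probe printed above, also measured on all 8 arrays, differed by -0.56 (adjusted p = 0.463), and averaging the probes ended the call. The lowest combination array exceeded the highest other array by more than the whole range of the other 6. Col6a5, a chain that can replace Col6a3, was measured on both combination arrays and on 1 of the other 6, with a difference of 2.04 (SE 0.836, adjusted p = 0.111) that did not pass.

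Among the remaining collagens, Col13a1 and Col12a1 rose. Col10a1, Col22a1 and Col25a1 were called lower, but they entered the test only because both vehicle arrays measured them, so their values are given as a description, and none could be tested on probes above background on all 8 arrays. Col13a1, a transmembrane collagen of cell adhesion sites (NM_007731, chromosome 10, 61301277 to 61301336), read -3.68 and -3.87 in vehicle, -3.44 and -4.01 in TP-16, -2.80 and -2.87 in anti-PD-1, and -2.04 and -1.93 in combination tumors. It rose by 1.79 (SE 0.204, 3.45-fold, adjusted p = 0.0102), though a second probe, which stood in for it where measurement on all 8 arrays was required, gave -0.77. Both anti-PD-1 arrays were above vehicle and TP-16, and both combination arrays above anti-PD-1.

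Col12a1, a FACIT collagen on type I fibrils, is named after its values were seen. It read 0.21 and 0.36 in vehicle, 0.20 and 0.14 in TP-16, 1.30 and 1.21 in anti-PD-1, and 1.64 and 1.41 in combination tumors. Its rise of 1.24 (SE 0.128, 2.36-fold, adjusted p = 0.0102) had the smallest SE among the collagens past a fold of 2. Both groups that received the antibody stood above both groups that did not, and slide row was shared in the same way.

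Col10a1 marks hypertrophic cartilage. Its probe (NM_009925, chromosome 10, 34116831 to 34116890) read -0.76 and -3.29 in vehicle, -3.87 and -5.30 in TP-16, -4.07 and -5.13 in anti-PD-1, and -6.82 and -7.14 in combination tumors. Neither combination array was well above background, and Col10a1 was at least 6.71-fold lower there than in vehicle (adjusted p of the fit 0.0153). The vehicle pair itself differed by more than 2 log2 units, with replicate 1 the brightest.

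Col22a1, a FACIT collagen of tissue junctions (NM_027174, chromosome 15), read -4.05 and -1.41 in vehicle and between -5.72 and -4.82 on the other 6 arrays, none of them well above background. It was at least 4.11-fold lower in combination than in vehicle tumors (adjusted p of the fit 0.0373), with replicate 2 as the bright vehicle array. That bound is set by the mean of the vehicle pair, and the adjusted p rose above 0.05 in 11 of 17 alternative settings. Col25a1, a transmembrane collagen of neurons and muscle (NM_198711, chromosome 3, 129885684 to 129885743), read -2.54 and -2.79 in vehicle, -4.33 and -5.05 in TP-16, -4.21 and -3.70 in anti-PD-1, and -4.07 and -5.37 in combination tumors. Its difference was -2.06 (SE 0.474, adjusted p of the fit 0.0256), and the combination pair overlapped both single-agent groups. It was measured on 5 of 8 arrays, both vehicle arrays among them.

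The other 10 tested genes of the class that did not pass the adjusted test ranged from Col26a1 at -1.51 to Col28a1 at 1.45, with Col8a2 at 0.94 (adjusted p = 0.063). Col8a1, a network collagen of vessel walls measured well on every array, differed by -0.16 (SE 0.111, interval -0.43 to 0.11) and Col16a1 by 0.23 (SE 0.158, interval -0.16 to 0.62). By these probes the intervals do not reach a change of 2-fold, but those of the other tested Col16a1 probes, -1.36 to 0.85 and -1.37 to 0.62, do.

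**Figure D3:**
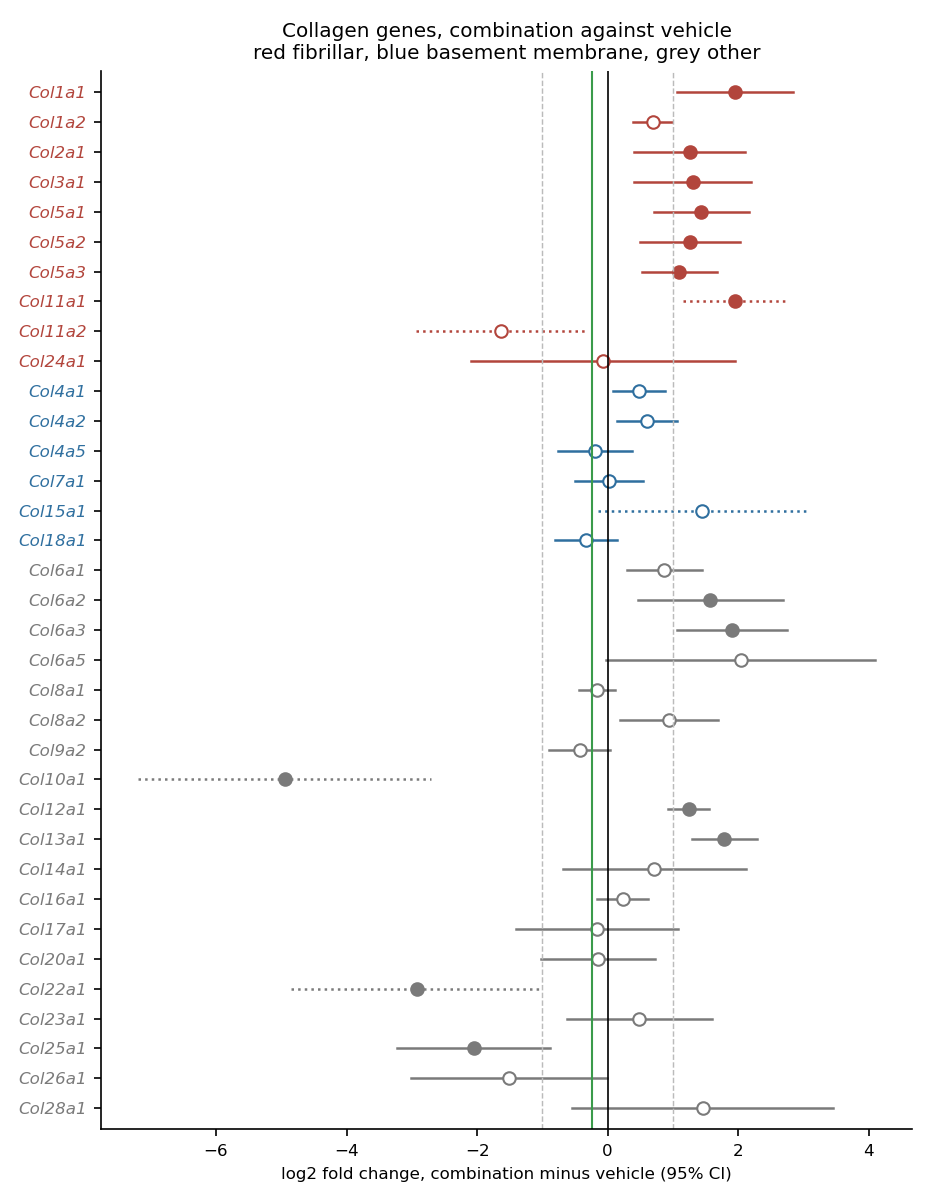
Log2 fold change of combination over vehicle for the 35 tested collagen genes with its 95% confidence interval from limma, in red for fibrillar, blue for basement membrane and grey for other collagens. Filled points passed a fold of 2 at an adjusted p of 0.05, dotted intervals mark genes with vehicle or combination not above background on either array (fitted values, no bounds), dashed lines are at a fold of 2 and the green line is the median of all genes at -0.24. Of the 14 filled points 11 lie to the right.

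Neither agent alone gave a collagen past the adjusted threshold. In TP-16 against vehicle 0 of 35 collagens were called in limma, with 0.0558% of all genes called, and 8 collagens had an unadjusted p under 0.05, against 27.9% of all genes. At the methods' threshold 0 collagens were higher (1.56% of all genes) and 4 were lower (5.11%): Col10a1, Col22a1, Col23a1 and Col25a1, of which all but Col23a1 entered the test through vehicle alone. Col10a1 and Col25a1 differed by -2.56 and -2.02, and Col22a1, which neither TP-16 array measured, was at least 4.20-fold lower. For Col23a1 the brightest probe was measured on 1 of 2 vehicle arrays and neither TP-16 array, so no size is given, while a second probe, measured on 1 TP-16 array, differed by -0.68. On probes above background on all 8 arrays 0 of 24 collagens passed either threshold in limma. The median over the collagens was -0.24 against -0.15 over all genes, and 25 of the 35 lay below 0, as did 65.2% of all genes.

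In anti-PD-1 against vehicle, 0 of 35 collagens were called in limma (0.0744% of all genes), and 6 had an unadjusted p under 0.05, against 15.1% of all genes. At the methods' threshold 0 were higher (1.9% of all genes) and 3 were lower (2.24%): Col10a1, Col22a1 and Col25a1, with differences of -2.57, -2.20 and -1.29. All 3 entered the test through vehicle alone, and 0 of the 24 collagens measured on all 8 arrays passed either threshold in limma. For Col10a1 and Col22a1 no anti-PD-1 array was well above background, and the bounds were at least 4.23-fold and at least 2.60-fold lower. The fibrillar genes had a median of 0.33, with 8 of 10 above 0, and Col12a1 and Col13a1, which both anti-PD-1 arrays measured above both vehicle arrays, differed by 0.97 (SE 0.128, adjusted p = 0.163) and 0.94 (SE 0.204, adjusted p = 0.241). Comparisons with vehicle share the same vehicle arrays, in which replicate 1 was bright for Col10a1 and replicate 2 for Col22a1. By the methods' t-test 1 collagen passed in each of these comparisons (against 1.86% of all genes with TP-16 and 1.08% with the antibody), and 0 after adjustment, as of all genes.

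What the combination added to each agent was compared directly. Against TP-16, 0 collagens passed the adjusted threshold, as did 0% of all genes in limma, and 20 collagens had an unadjusted p under 0.05, against 23.8% of all genes. At the methods' threshold 14 of 35 collagens were higher, against 4% of all genes, and 1, Col10a1, was lower, against 0.893%. The Col10a1 call rests on signal near background, since 1 TP-16 array and no combination array measured the gene. Of the 14, Col6a5 and Col11a1 entered the test through the combination alone, and on probes measured on all 8 arrays 10 of 24 were higher, against 3.2% of all genes. Among the genes described at every comparison, the differences were 1.73 for Col1a1 (SE 0.36, adjusted p = 0.127), 1.47 for Col3a1 (SE 0.362, adjusted p = 0.138), 1.37 for Col5a1, 0.38 for Col1a2, 1.01 for Col6a1, 0.77 for Col4a1, 0.71 for Col4a2, 0.16 for Col18a1 (adjusted p = 0.666) and 1.42 for Col15a1 (adjusted p = 0.263, fitted against a group at background). The median was 1.01 over the collagens and 1.48 over the fibrillar genes, beside -0.09 over all genes. With a trend and robust prior 5 collagens passed the adjusted threshold (0.791% of all genes), with normexp correction 4 (0.563%), and without TP-16 replicate 2 the median was 0.60.

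Against anti-PD-1, 0 collagens passed the adjusted threshold in limma (0.014% of all genes) and 17 had an unadjusted p under 0.05, against 29.2% of all genes. At the methods' threshold 8 were higher, against 2.39% of all genes, and 2, Col10a1 and Col26a1, were lower, against 2.33%. No array of either group measured Col10a1, so its call is no measured difference. Of the 8, Col6a5, Col11a1 and Col15a1 entered the test through the combination alone, and on probes measured on all 8 arrays 5 of 24 were higher, against 1.71% of all genes. The differences were 1.16 for Col1a1 (SE 0.36, adjusted p = 0.125), 0.79 for Col3a1, 0.94 for Col5a1, 1.10 for Col6a1 (SE 0.233, adjusted p = 0.0745), 0.78 for Col4a1 (SE 0.164, adjusted p = 0.0743) 0.73 for Col4a2, 0.44 for Col1a2, 0.22 for Col18a1 (adjusted p = 0.508) and 1.75 for Col15a1 (adjusted p = 0.167, fitted against a group at background). The median was 0.73 over the collagens and 0.93 over the fibrillar genes, beside -0.14 over all genes. With normexp correction 6 collagens passed the adjusted threshold (1.62% of all genes), and the median was 0.19. The methods' t-test gave 8 collagens against TP-16 (1.87% of all genes) and 4 against anti-PD-1 (2%), and 0 after adjustment, as of all genes.

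**Figure D4:**
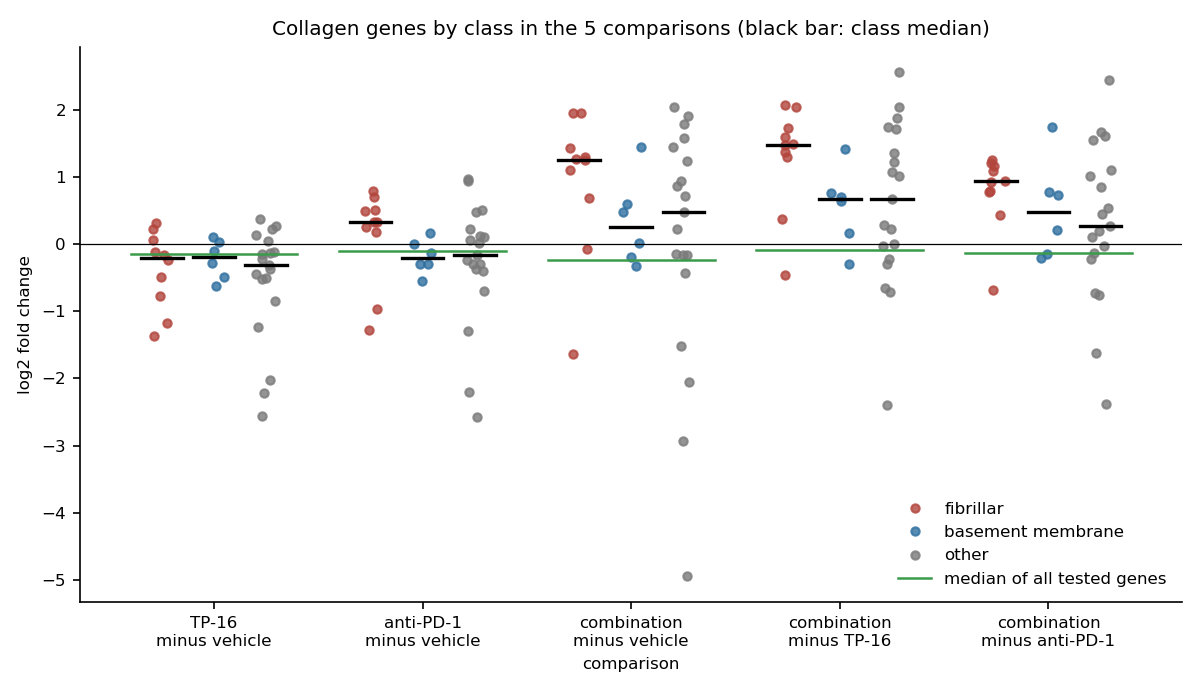
Log2 fold change of each tested collagen gene in the 5 comparisons, in red for fibrillar, blue for basement membrane and grey for other collagens, with a black bar at the median of the class and a green line at the median of all genes tested. The fibrillar medians were -0.20 and 0.33 for the single agents TP-16 and anti-PD-1 against vehicle, 1.26 for the combination against vehicle, and 1.48 and 0.93 for the combination against TP-16 and against anti-PD-1.

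Over the 4 groups, both combination arrays were above the other 6 for 19 of 35 collagens, against 13.6% of all genes, and below them for 5, against 29%. The 19 comprised 8 of 10 fibrillar genes, 3 of 6 basement membrane genes and 8 of 19 others, among which were all 4 tested type VI genes. Of the 19, Col6a5, Col11a1 and Col15a1 entered through the combination alone, and of the 5 Col10a1 and Col22a1 through vehicle alone. On probes measured on all 8 arrays 13 of 24 lay above and 3 below, against 13.7% and 32.1% of all genes. The count above was 20 under quantile normalization (17.6% of all genes), 20 in the authors' table (17.7%), 14 after normexp correction (12.3%) and 16 for the mean over probes (12.2%). A contrast asking whether the combination differed from the sum of the single agents gave 0 collagens at the adjusted threshold in limma, as 0% of all genes, and 12 at an unadjusted p under 0.05, against 7% of all genes. With a fold of 2 and an unadjusted p, 9 collagens departed upward, against 2.79% of all genes, and 0 downward, against 0.488%. On probes measured on all 8 arrays 7 of 24 departed upward, against 1.68%. Among these were Col4a1 at 1.07 (SE 0.232, adjusted p = 0.446), Col6a3 at 1.81 (SE 0.485, adjusted p = 0.53) and Col6a1 at 1.24 (SE 0.329, adjusted p = 0.53), while Col1a1 departed by 0.94 (SE 0.509, adjusted p = 0.769) and Col1a2 by 0.13.

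Probes of a gene did not always move together. Of 12 collagen genes with several tested probes, 5 had probes of opposite sign in combination against vehicle. Col6a3, given above, was 1 of them. For Col15a1 the coding probe printed above differed by -0.85, against 1.45. For Col13a1 a probe of ENSMUST00000153120 differed by -0.77 (adjusted p = 0.0557), and Col5a2 was given above. For Col16a1 the probes gave 0.23, -0.25 and -0.37. In Col1a1, Col1a2, Col3a1, Col4a5, Col6a2, Col12a1 and Col23a1 all tested probes had one sign, though not one size. The other probes of Col3a1 gave 0.47 (adjusted p = 0.461) and 0.90 (adjusted p = 0.246), and those of Col1a2 gave 0.23 (adjusted p = 0.65) and 1.17 (adjusted p = 0.101), none of which passed. Averaging the probes of each gene left 7 of the 11 rises, without Col3a1, Col5a2, Col6a3 and Col13a1. Which exons the probes lie in was not analysed here.

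Several collagens lie side by side in the genome. By the RefSeq gene order of GRCm38.p6, Col3a1 and Col5a2 are neighbors on chromosome 1, Col6a2 and Col6a1 on chromosome 10, and Col4a1 and Col4a2 on chromosome 8. In each of these pairs both genes had their combination arrays above the other 6, as did 19 of 35 collagens and 13.6% of all genes. Col4a6 and Col4a5, Col4a4 and Col4a3, and Col9a1 and Col19a1 are neighbors too. Of these only Col4a5 was tested, and its combination arrays were not above the other 6. Col6a5 lies between Col6a6 and Col6a4 on chromosome 9, and the latter genes were not tested, each being above background on 1 array. The promoter windows of Col4a1 (minus strand) and Col4a2 (plus strand) overlap by 78 bases, chr8:11312777-11312854.

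RefSeq promoters were given for 35 of the 44 collagen genes, in 38 windows of GRCm38.p6. The 250 bases before the start were searched on both strands for CCAAT (the CCAAT box), for TATAAA (the TATA box) and for GGGCGG (a GC box), of which the reverse of the first can share letters with the last. They were found in 13, 5 and 22 of the 38 collagen windows, against 33.8%, 12.4% and 32.7% of all 32851 windows. Shown are those of Col1a2 and Col3a1, which rose, and of Col10a1, which vehicle tumors alone measured on both arrays, 5′ to 3′ and ending at the base before the start, with the motifs of either strand in capitals.
Col1a2, chr6:4505368-4505617, plus strand: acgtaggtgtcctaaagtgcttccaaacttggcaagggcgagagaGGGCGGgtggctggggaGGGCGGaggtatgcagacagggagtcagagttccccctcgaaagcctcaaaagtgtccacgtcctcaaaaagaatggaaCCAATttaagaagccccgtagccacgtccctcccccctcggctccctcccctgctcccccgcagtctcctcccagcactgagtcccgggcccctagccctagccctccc
Col3a1, chr1:45311288-45311537, plus strand: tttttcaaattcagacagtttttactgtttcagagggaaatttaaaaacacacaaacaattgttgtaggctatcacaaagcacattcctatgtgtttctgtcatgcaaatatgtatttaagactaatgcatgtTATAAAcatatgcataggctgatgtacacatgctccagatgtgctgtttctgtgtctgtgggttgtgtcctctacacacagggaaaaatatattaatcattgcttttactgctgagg
Col10a1, chr10:34389731-34389980, plus strand: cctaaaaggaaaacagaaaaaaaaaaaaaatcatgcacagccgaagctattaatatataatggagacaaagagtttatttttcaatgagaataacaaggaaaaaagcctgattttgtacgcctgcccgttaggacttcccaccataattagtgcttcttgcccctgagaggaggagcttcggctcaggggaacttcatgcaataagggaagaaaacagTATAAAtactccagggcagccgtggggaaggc
Col10a1 holds TATAAA beginning 32 bases before its start and Col3a1 117 bases before its start, while Col1a2 holds CCAAT and a pair of GGGCGG.

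A collagen chain is hydroxylated, folded with the help of chaperones, secreted, trimmed, cross-linked and at last degraded, and 103 genes of these steps and of TGF-beta signaling, in 8 lists, were set beside the collagens. Of 93 tested, 14 were higher and 1 lower in combination than in vehicle tumors at a fold of 2 and an adjusted p of 0.05, beside 5.59% and 8.62% of all genes, and their median was 0.37. Cross-linking genes had a median of 0.82, and 2 of 6 rose by that measure: Loxl1, a lysyl oxidase, by 1.74 (SE 0.221, adjusted p = 0.0102), and the transglutaminase Tgm2 by 1.29 (SE 0.247, adjusted p = 0.0164). Loxl2 and Loxl3 rose by 0.73 and 0.65, under a fold of 2. Lox itself was at 0.92 (adjusted p = 0.0869).

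Fibril-organizing proteins had a median of 0.88, and 5 of 17 rose at a fold of 2. Podn, a small leucine-rich proteoglycan, rose by 2.12, Postn (periostin, a matrix protein of activated fibroblasts) by 1.98, Fbln1 (fibulin 1) by 1.82 and Prelp by 1.63. Postn read 1.69 and 0.96 in vehicle, 1.76 and 1.17 in TP-16, 2.28 and 2.17 in anti-PD-1, and 3.11 and 3.50 in combination tumors, an order of groups like that of Col1a1. Podn and Prelp were instead above vehicle on all 6 treated arrays.

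Of the propeptide enzymes 2 of 6 rose: Adamts2, which trims the amino end of procollagens, by 1.38 (SE 0.248, adjusted p = 0.0143), and Pcolce2, an enhancer of the proteinase for the other end, by 1.32. In the folding list 1 of 9 rose, against 5.59% of all genes. This was Creb3l1, a transcription factor of the secretory pathway, by 1.42 (SE 0.222, adjusted p = 0.0114), while Serpinh1, the collagen chaperone HSP47, was at -0.27 (adjusted p = 0.164). Of 14 hydroxylases and their partners 0 passed the fold of 2 in limma. At the adjusted p alone P4ha2, a prolyl 4-hydroxylase, rose by 0.89, and P3h1, P3h4 and Ppib, members of the prolyl 3-hydroxylation complex or its partners, fell by 0.71, 0.54 and 0.51 on the log2 scale.

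Of 13 collagen receptors 1 was higher and 1 lower at a fold of 2, near the 5.59% and 8.62% of all genes. The list median was -0.045, beside -0.24 over all genes. Itga11, the integrin chain of fibroblasts that binds fibrillar collagen, rose by 2.82 (SE 0.405, adjusted p = 0.0107). Itga1, an integrin chain with a preference for collagen IV, fell by 2.37 on the log2 scale (SE 0.489, adjusted p = 0.0196). The other 11 of 13 did not pass at a fold of 2. Itga11 read -2.36 and -2.54 in vehicle, -0.71 and -1.97 in TP-16, -0.65 and -1.10 in anti-PD-1, and 0.37 and 0.37 in combination tumors. In the breakdown list 2 of 13 rose, Mmp2 (gelatinase A) by 1.66 and Timp3, a metalloproteinase inhibitor, by 1.43. The TGF-beta list had 1 higher of 15, near the 5.59% of all genes. This was Ltbp2, a latent TGF-beta binding protein, at 1.69, while Tgfb1 was at 0.37 (adjusted p = 0.20) and its target Ccn2 at -0.26 (adjusted p = 0.572). In none of the other 4 comparisons did a gene of these lists pass the adjusted threshold in limma.

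**Figure D5:**
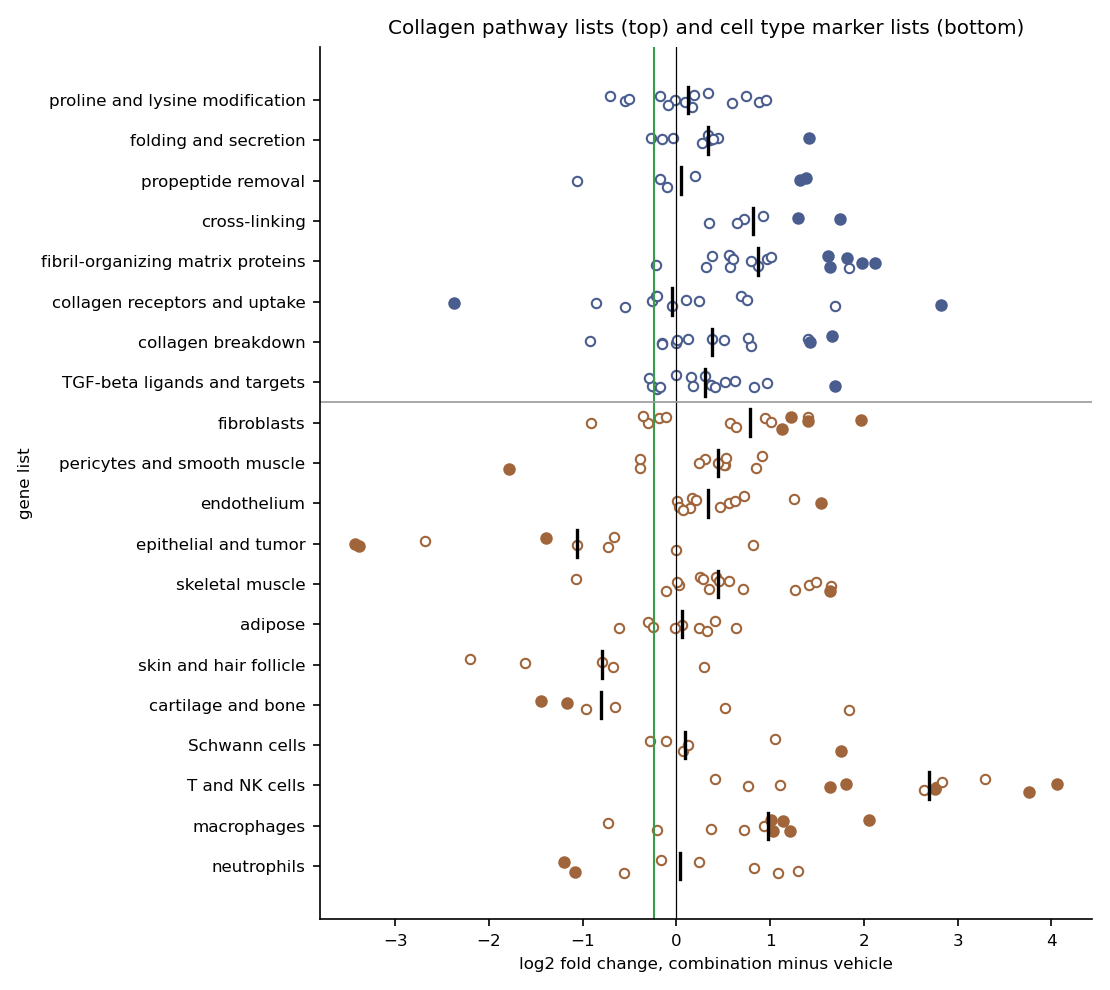
Log2 fold change of combination over vehicle for each tested gene of 8 collagen pathway lists (blue, above the grey line) and 12 cell type marker lists (brown, below it), filled where a fold of 2 and an adjusted p of 0.05 were passed, with a black bar at the list median and a green line at the median of all genes. The medians of cross-linking (0.82) and fibril-organizing genes (0.88) lie to the right of the green line at -0.24, as does that of the T and NK cell markers (2.70).

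Markers of other cell types were set beside the collagens, and their part in the collagen differences was not tested. Their counts read against 5.59% of all genes higher and 8.62% lower, and 1 higher of 12 endothelial or of 16 muscle markers is near that share. Of 14 fibroblast markers 4 were higher in combination than vehicle tumors at a fold of 2 and an adjusted p of 0.05 (Lrrc15 by 1.97, Dpep1 by 1.40, Pdgfra by 1.22 and Mmp3 by 1.13), none was lower by that measure, and the median was 0.79. The summed linear level of the 14, in units of the 75th percentile, was 1130 to 1150 in vehicle, 753 to 799 in TP-16, 1030 to 1060 in anti-PD-1 and 623 to 718 in combination tumors, most of it S100a4, which fell by 0.91 on the log2 scale. Without S100a4 it was 88.8 to 91.7, 86.3 to 90, 111 to 113 and 105 to 118. All 14 were above background on every array, and Prrx1, Twist1, Twist2 and Pdpn, at differences between -0.35 and -0.12, did not pass. The summed level of the 10 fibrillar collagens was 186 to 215 in vehicle, 202 to 267 in TP-16, 238 to 280 in anti-PD-1 and 391 to 421 in combination tumors, and that of the 6 basement membrane genes 25.5 to 32.2, 21 to 25.6, 22.2 to 23.6 and 32.2 to 32.6.

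Of 12 endothelial markers 1 passed, Vwf by 1.54, and the summed level was 21.4 to 24.3 in vehicle, 14 to 19.7 in TP-16, 19.2 to 21.3 in anti-PD-1 and 25 to 33.6 in combination tumors. Of 11 pericyte and smooth muscle markers 0 were higher in limma (0 also at an unadjusted p under 0.05 with a fold of 2) and 1, Kcnj8, fell by 1.79 on the log2 scale. The sums were 55.5 to 107 in vehicle, 82 to 115 in TP-16, 52.9 to 66.2 in anti-PD-1 and 72.8 to 118 in combination tumors. Of 10 macrophage markers 5 were higher, with sums of 177 to 200 in vehicle and 277 to 386 in combination tumors, and of 12 T and NK cell markers 5 were higher, with sums of 10.6 to 37.1 and 67.2 to 103. Of 9 tested epithelial and tumor markers 3 were lower (Krt18, and Cldn4 and Cdx2, which were measured on 2 and 4 of the 8 arrays), with sums of 75.5 to 84.1 and 59.3 to 86.2, and Vil1 was at background on every array. Measured on 2 arrays, Cldn4 entered the test through 1 group alone, so its call gives no support for a direction. Of 8 neutrophil markers tested 2, S100a8 and S100a9, were lower, with sums of 107 to 116 and 55.8 to 70. The median of the 8 was 0.04, beside -0.24 over all genes, so the list as a whole was not lower.

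Tissue taken with a tumor can also bring collagen. Of 6 cartilage and bone markers tested 2 were lower, Alpl at -1.45 and Sox9 at -1.17, with sums of 2.71 to 3.24 in vehicle and 1.81 to 1.86 in combination tumors, and Acan, Matn1 and Matn3, which define cartilage, were at background on every array. Skin and hair follicle markers had 5 of 14 tested and 0 called in limma, with 0 at an unadjusted p under 0.05 and a fold of 2. Their sum was 8.82 to 11.2 except on TP-16 replicate 2 (40.7) and anti-PD-1 replicate 2 (43.6). Col17a1, a transmembrane collagen of epidermal attachment named after its values were seen, has a probe that did not pass the filter and was measured on exactly those arrays, at -3.08 and -2.55, with the other 6 between -5.88 and -4.71. Its tested probe was measured on all 8 arrays, between -3.81 and -2.25, and did not stand out on that pair. Of 16 skeletal muscle markers 1, Ttn, was higher, with sums of 35.3 to 90.2 in vehicle and 77.2 to 79.2 in combination tumors. Of 9 adipose markers 0 were called in limma and 0 had an unadjusted p under 0.05 with a fold of 2. Of 6 Schwann cell markers 1, Mbp, was higher, with sums of 4.51 to 4.98 and 6.97 to 8.15.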

How the data were processed

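CT26 tumor RNA was hybridized to Agilent SurePrint G3 mouse arrays. The deposited scanner output holds spot intensity that Feature Extraction 10.7.1.1 had background-subtracted and detrended. The authors also deposited a log2 table, which the methods attribute to GeneSpring. Its array medians were 8.31 to 8.33, its kind of normalization is unknown, and it correlated with the scanner values at 0.996 or more, so it served as an alternative. The methods name TRIzol and the labels a column kit for extraction.

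Control spots, and 38 probes with an outlier mark on all their spots of an array, were removed, spots of a probe were averaged on the log2 scale, and the 75th percentile of the array was subtracted. The 31912 probes that both arrays of some group measured well above background entered limma 3.58.1 (R 4.3.3) with 1 mean per group, empirical Bayes moderation on 4 residual degrees of freedom and Benjamini-Hochberg adjustment over all tested probes. A gene was represented by its brightest tested probe. The fit was checked on simulated data. The bound "at least" sets the brighter mean against, per array, the higher of the dim probe's value and the lowest signal well above background. The genes described in full were Col1a1, Col1a2, Col3a1, Col4a1, Col4a2, Col5a1, Col6a1, Col15a1 and Col18a1, with up to 10 called genes per comparison by size of change. Of a pathway list at most 4 called genes were named, others being given as values. Members, lists and rules were chosen with earlier results of these data known. Coordinates come from the array's own annotation (mm9). The limma p-values rest on a spread pooled over the replicates of all 4 groups and moderated across probes. A comparison of 2 groups thus also draws on the arrays of the other groups. With 2 samples per group precision is limited. Alternatives were other normalization, background correction, filters, tests, samples in the fit, probe choice, call rules, a replicate block, and each array left out.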

Additional observations from a re-analysis of the deposited data

Results flagged for a closer look

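For 6 collagen genes both arrays with an agent lay on one side of those without it when the other agent was absent, and on the opposite side when it was present. Some gaps were tiny: Col8a1 read 5.685 in vehicle 1 and 5.686 in anti-PD-1 1, and Col12a1 0.206 in vehicle 1 and 0.202 in TP-16 1. The genes were picked by this order of values, so that they stood out for a difference between groups. The difference was tested as the departure from additivity (the combination's difference from vehicle less those of both single agents, limma), and no gene passed after adjustment over all probes. With the antibody, Col4a1 was below vehicle when given alone and above TP-16 when added to it, with a departure of 1.07 (SE 0.232, adjusted p = 0.446). Col5a2, Col5a3 and Col12a1 read lower than vehicle with TP-16 alone and higher than anti-PD-1 when TP-16 was added, with departures of 1.71 (SE 0.439, adjusted p = 0.53), 1.26 (SE 0.329, adjusted p = 0.53) and 0.38 (SE 0.182, adjusted p = 0.737). Col18a1 showed the pattern for either agent, at 0.71 (SE 0.272, adjusted p = 0.659). Col8a1 showed it for either agent in the opposite sense, at -0.36 (SE 0.157, adjusted p = 0.705). All these contrasts share the same 8 arrays. With 2 arrays per group, no group could be examined for single outlying samples.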

How the results depend on the processing

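Of 193 recomputed counts and medians, 164 stayed within 1.5 times the count or within 1 SD between replicates (0.28, for the median per array). These include counts of 0 that stayed 0, since only combination against vehicle had collagens called in the main fit. The 164 is therefore no measure of how stable that comparison was. The number of collagens called in combination against vehicle, 14, was 7 with no filter on dim probes (7.63% of all genes), 9 on probes above background on all 8 arrays (12.8%), and 0 with only the compared groups or by the methods' t-test (0% of all genes), where fewer arrays estimate the spread. Leaving out 1 array gave 0 to 13 calls, and 0 to 1 in TP-16 or anti-PD-1 against vehicle. Against TP-16 the 0 calls became 4 (normexp, 0.563% of all genes), 1 (all 8 arrays, 0.196%) and 5 (trend and robust, 0.791%), and against anti-PD-1 6 (1.62%), 2 (1.22%) and 2 (1.63%). With a fold of 2 and an unadjusted p, the 0 calls became 4 (TP-16, 6.67% of all genes), 3 (anti-PD-1, 4.14%), 15 (combination against TP-16, 4.89%), 10 (against anti-PD-1, 4.72%) and 9 (additivity, 3.28%). For TP-16 3 of the 4, and for anti-PD-1 all 3, were genes that entered the test through vehicle alone. The median of combination against vehicle, 0.69, was 1.05 by quantile normalization and by the authors' values, and 0.16 by normexp. Against TP-16 normexp gave 0.39, and leaving out 1 array 0.60 to 1.10, and against anti-PD-1 normexp gave 0.19 and no filter 0.44. The cause was not tested. Of 355 gene values 2 reversed: Col13a1 to -0.77 on probes above background on all 8 arrays, where another probe stands for it, and Col15a1 to -0.04 by normexp. Another 106 moved above and 7 below an adjusted p of 0.05. With the replicate number as a replicate block 12 collagens were called in combination against vehicle (13.6% of all genes), the medians were as before and no other count changed. The numbers were not found to pair the samples, since deviations of same-numbered arrays correlated at -0.19 to 0.29. A slide block was not run, because all arrays lay on 1 slide. Signal near background limits Col10a1, Col11a1, Col15a1 and Col22a1, and 2 arrays per group limit all. The counts of both combination arrays above the other 6 under other settings were added after seeing the data.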
